A study of Mus musculus with 16 samples.

Results

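A set of 10 genes that mark astrocytes was followed in the dorsal hippocampus of mice that drank water or caffeine and were either left in the home cage or trained in a maze. The members were chosen by symbol from a table of 35328 genes: Aqp4, Gfap, Aldh1l1, Slc1a2, Slc1a3, Gja1, Gjb6, Glul, S100b and Fgfr3. All 10 were found, and all 10 were among the 17830 genes with enough counts to be tested.

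Astrocytes are glial cells that take up glutamate and potassium released by neurons, form a coupled network through gap junctions, and reach blood vessels with endfeet rich in a water channel. In the hippocampus they also store glycogen, supply neurons with lactate and glutamine, and change their cytoskeleton with injury and with activity. No single gene defines them, so a set of genes from these separate functions is usually read together.

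RNA-Seq was performed on 16 male C57BL6/J mice, 4 in each of 4 groups. Home cage water and home cage caffeine mice were taken from their cage, and learning water and learning caffeine mice were trained for 3 days in the Morris water maze and taken 1 hour after the last session; in this maze a mouse learns where a hidden platform lies. Caffeine was given at 0.3 g/L in the drinking water for 2 weeks, from 8 to 9 weeks of age, and the water mice received plain water; no gene was altered in any group. No pooling of mice is stated for the RNA-Seq, each library is read here as 1 mouse, and the numbers below are those of the animals (for example, learning caffeine 22).

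Library totals were 23078094 to 49949281 counts, with a median of 32943078 in the 8 home cage and 38342084.5 in the 8 learning libraries. Between 3.23% and 4.49% of counts were on mitochondrial genes, with the highest share in home cage caffeine 17. The tissue is bulk, so fewer astrocytes and less RNA per astrocyte cannot be told apart in any value below. Markers of neurons, oligodendrocytes, microglia, endothelium and choroid plexus were all detected beside those of astrocytes. The amount of choroid plexus RNA differed between groups. The summed level of 10 choroid plexus genes was 310 to 2375 CPM (counts scaled to the library total) in home cage water mice. It was 196 to 512 CPM in home cage caffeine, 168 to 441 CPM in learning water and 120 to 209 CPM in learning caffeine mice.

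The members covered a wide range of levels. Levels of different genes are compared here as CPM per kilobase of exon, averaged over the 16 libraries. Glul, which encodes the glutamine synthetase that turns glutamate into glutamine, was at 445 ± 26.1 CPM per kb (SD, n = 16). Slc1a2, the main glutamate transporter of forebrain astrocytes, followed with 241 ± 17.3 CPM per kb. Gfap, the intermediate filament of astrocytes, was at 109 ± 14.6, Slc1a3, the other astrocytic glutamate transporter, at 83.8 ± 6.88, and S100b, a calcium-binding protein, at 83.5 ± 7.01 CPM per kb. These 3 genes overlapped with each other in their ranges over the libraries, whereas Glul, Slc1a2 and this trio did not overlap.

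The other 5 members formed a lower tier with levels of 12.0 to 25.1 CPM per kb, and no value of it reached the trio above. The water channel Aqp4 was at 25.1 ± 3.72, the connexin Gja1 at 21.4 ± 1.56, the connexin Gjb6 at 18.5 ± 2.77, the growth factor receptor Fgfr3 at 15.6 ± 1.70 and the folate enzyme Aldh1l1 at 12.0 ± 1.74 CPM per kb. Each neighbour in this order overlapped with the next in its range. The coefficient of variation over the 16 libraries was smallest for Glul (5.86%) and largest for Gjb6 (14.98%), with Aqp4 (14.8%), Aldh1l1 (14.5%) and Gfap (13.4%) next to it.

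**Figure D1:**
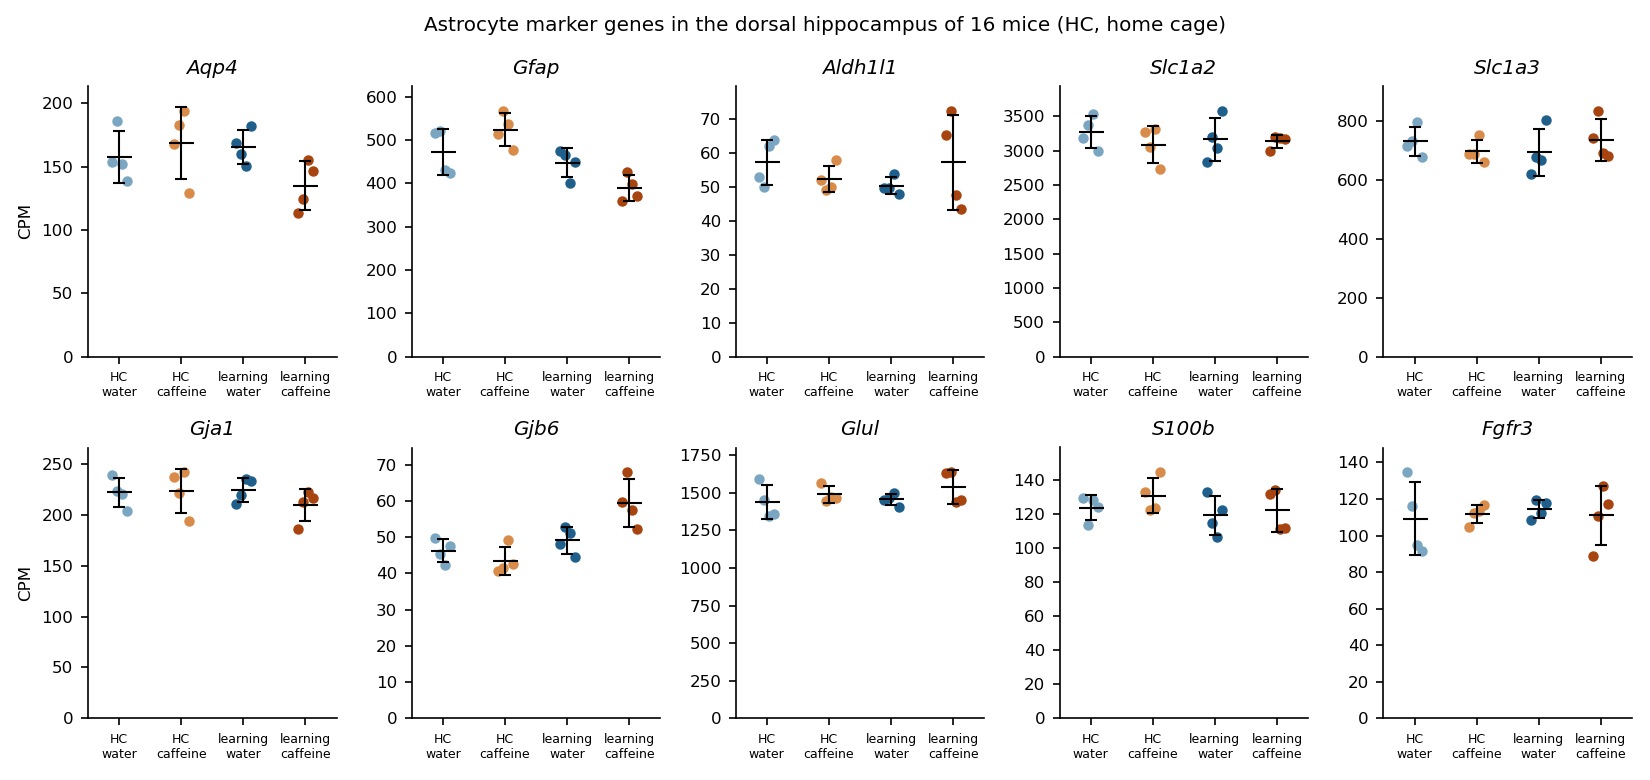
Level of each of the 10 astrocyte marker genes in CPM (vertical axis, from 0) in the 16 libraries, by group; points are mice, and bars are the mean ± SD of 4 mice. Learning caffeine mice sit below all home cage caffeine mice for Gfap and above them for Gjb6, and 2 learning caffeine mice sit at 65.2 and 72.3 CPM of Aldh1l1, above the other 14.

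The question put to these groups is how training changes hippocampal transcription and how caffeine alters that change. After training under caffeine, Gfap fell and Gjb6 rose, and the other 8 members passed no test (edgeR quasi-likelihood test with Benjamini-Hochberg adjustment over 17830 genes, called at an adjusted p under 0.1). Of all genes tested in this comparison, 3.16% were called higher and 2.13% lower, beside 1 of 10 members in each direction. The median log2 fold change of the 10 members was 0.01, beside −0.01 over all genes tested. The members that did change did so in opposite directions.

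Gfap (ENSMUSG00000020932, chromosome 11 from 102887336 to 102900912, mm10) encodes the filament protein by which astrocytes are most often stained. Its level was 514, 568, 537 and 477 CPM in home cage caffeine mice 2, 9, 14 and 17, and 360, 426, 397 and 371 CPM in learning caffeine mice 22, 27, 30 and 40. Every learning caffeine mouse lay below every home cage caffeine mouse. The log2 fold change was −0.43 ± 0.08 (SE, n = 4 per group), with an adjusted p of 0.0101 by edgeR. Under water the level was 517, 520, 431 and 423 CPM in home cage mice 6, 8, 11 and 20 and 475, 465, 401 and 450 CPM in learning mice 24, 33, 36 and 38. Those groups overlapped, and the log2 fold change was −0.08 with a 95% interval of −0.25 to 0.09 (adjusted p = 0.734 by edgeR).

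Gjb6 (ENSMUSG00000040055, chromosome 14 from 57123303 to 57133611) encodes a connexin that, in the brain, astrocytes make largely on their own. Its level was 40.5, 41.4, 49.1 and 42.5 CPM in home cage caffeine mice 2, 9, 14 and 17, and 59.7, 67.9, 57.6 and 52.1 CPM in learning caffeine mice 22, 27, 30 and 40. All 4 learning caffeine mice lay above all 4 home cage caffeine mice. The log2 fold change was 0.45 ± 0.08 (SE, n = 4 per group), with an adjusted p of 0.00907 by edgeR. Under water, home cage mice 6, 8, 11 and 20 had 49.7, 45.3, 42.4 and 47.5 CPM and learning mice 24, 33, 36 and 38 had 48.0, 52.9, 51.1 and 44.4 CPM. These groups overlapped, with a log2 fold change of 0.09 and a 95% interval of −0.09 to 0.26 (adjusted p = 0.705 by edgeR).

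Gfap and Gjb6 were the members whose home cage and learning libraries did not overlap under caffeine, 2 of 10, where 10.9% of all genes tested did not overlap. Under water no member was free of overlap, beside 6.99% of all genes. Neither gene shares exon bases with another gene of the GENCODE M21 annotation. Leaving out each of the 16 libraries in turn left both called in all 16 fits, with log2 fold changes of −0.47 to −0.38 for Gfap and 0.38 to 0.52 for Gjb6.

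A gap between the treatments in their response to training was not established for any member. The difference between the learning responses (under caffeine minus under water) was −0.35 ± 0.11 on the log2 scale for Gfap, 0.36 ± 0.12 for Gjb6 and −0.39 ± 0.17 for Aqp4 (SE). The unadjusted p values were 0.00616, 0.00595 and 0.0324 and the adjusted p was 0.99997 for each (edgeR). In this comparison 0% of all genes were called and 3.63% had an unadjusted p under 0.05, against these 3 of 10 members. The Wald test of DESeq2 also called 0 members. Without learning caffeine 22 and 27 the difference was −0.37 for Gfap, 0.25 for Gjb6 and −0.23 for Aqp4.

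Averaged over water and caffeine mice, training was accompanied by the same 2 calls. In this average Gjb6 rose by 0.27 ± 0.06 on the log2 scale (SE, adjusted p = 0.00978 by edgeR) and Gfap changed by −0.25 ± 0.06 (adjusted p = 0.0121). The caffeine mice compared above enter the average, so these calls are not independent of those under caffeine. Under water alone Gfap was at −0.08 and Gjb6 at 0.09, neither called. Of all genes tested, 7.81% were called higher and 6.71% lower. The log2 fold changes of the other 8 members ran from −0.13 to 0.03. Their 95% intervals all lay between −0.30 for Aqp4 and 0.19 for Fgfr3, and each interval bounds the change of its own gene only.

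**Figure D2:**
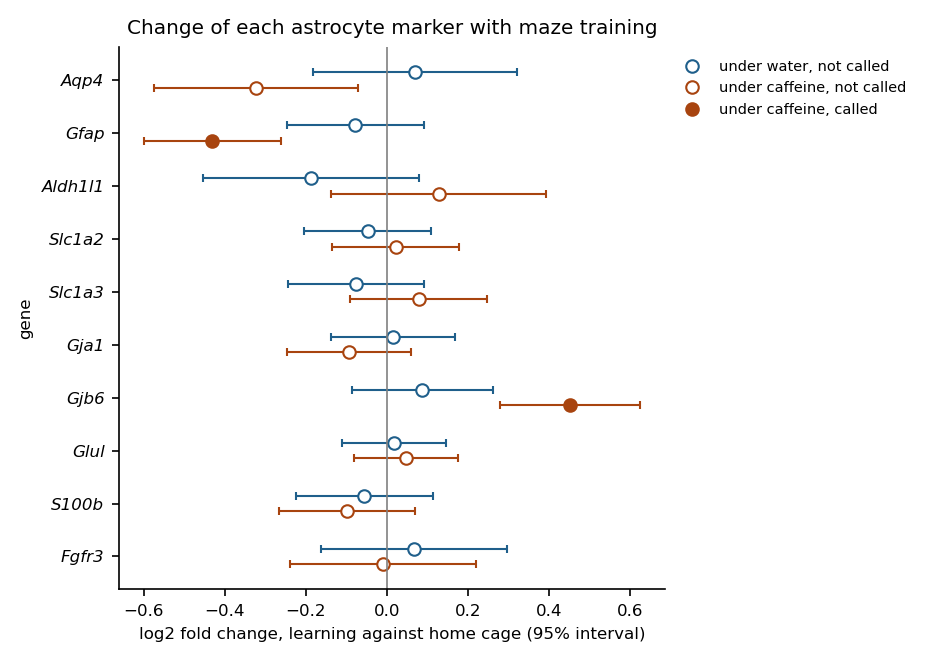
Log2 fold change of each member, learning against home cage (horizontal axis, with 95% interval), under water (blue) and under caffeine (orange); filled points passed an adjusted p under 0.1. Under caffeine Gfap lies at −0.43 and Gjb6 at 0.45 with intervals clear of 0, Aqp4 lies at −0.32 without being called, and under water every interval crosses 0.

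With training under water alone no member was called by edgeR, by DESeq2 or at an unadjusted p under 0.05, where 11.8% of all genes had such a p and 0.639% were called higher and 0.331% lower. The log2 fold changes of the 10 members ran from −0.19 to 0.09, and their intervals spanned −0.45 (Aldh1l1) to 0.32 (Aqp4).

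The members of the gap junction network did not move together. Gja1 (chromosome 10 from 56377330 to 56402513) encodes the connexin that astrocytes share with vascular and meningeal cells. Its level ran from 193 to 242 CPM in home cage caffeine and from 186 to 222 CPM in learning caffeine mice, with a log2 fold change of −0.09 (adjusted p = 0.505 by edgeR). The groups overlapped. The ratio of Gja1 to Gjb6 within a library, which does not depend on library scaling, was, per kb of exon, 1.53, 1.39, 1.28 and 1.19 in mice 2, 9, 14 and 17 (home cage caffeine). It was 0.813, 0.815, 1.01 and 1.08 in mice 22, 27, 30 and 40 (learning caffeine). All 4 learning caffeine mice were below all 4 home cage caffeine mice. In water mice the ratio was 1.25 ± 0.0990 in the home cage and 1.20 ± 0.124 after learning (SD, n = 4 each), and these groups overlapped. Since Gjb6 is part of this ratio, it adds no independent measure of the change of Gjb6.

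The ratio of the transporters overlapped between all groups. Slc1a2 to Slc1a3 was 2.91 ± 0.06 in home cage water, 2.87 ± 0.16 in home cage caffeine, 2.97 ± 0.07 in learning water and 2.78 ± 0.27 in learning caffeine mice, per kb of exon (SD, n = 4). The wider SD of the last group came with 2.62 and 2.49 in learning caffeine 22 and 27 beside 2.99 and 3.03 in mice 30 and 40. Apart from these animals and home cage caffeine 17 (2.68), the ratio stayed between 2.86 and 3.08.

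**Figure D3:**
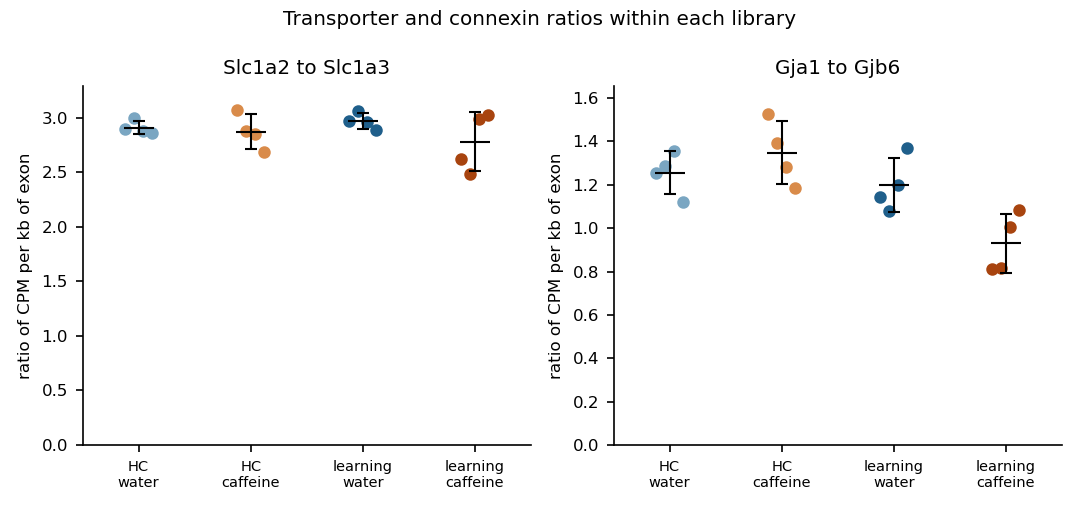
Ratio of Slc1a2 to Slc1a3 (left) and of Gja1 to Gjb6 (right) within each library, both as CPM per kb of exon (vertical axes, from 0), by group; points are mice and bars the mean ± SD of 4 mice. The Gja1 to Gjb6 ratio is 0.813 to 1.08 in learning caffeine and 1.19 to 1.53 in home cage caffeine mice.

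Aqp4 (ENSMUSG00000024411, chromosome 18 from 15389496 to 15410982) encodes the water channel of the endfeet. Its level was 168, 183, 194 and 130 CPM in home cage caffeine mice 2, 9, 14 and 17, and 114, 124, 155 and 146 CPM in learning caffeine mice 22, 27, 30 and 40. Mouse 17 lay among the learning mice, so the groups overlapped. The log2 fold change was −0.32 ± 0.12 (SE), with an adjusted p of 0.157 by edgeR. Without home cage caffeine 17 it was −0.43 with an adjusted p of 0.0667, which is a call, and without both that mouse and home cage water 20 it was −0.42 with an adjusted p of 0.0618, also a call. Without learning caffeine 22 and 27 it was −0.15 with an adjusted p of 0.597. These pairs of mice were chosen after their values were seen. In water mice Aqp4 ran from 138 to 186 CPM in the home cage and from 151 to 182 CPM after learning.

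Aqp4 is held at the endfoot membrane by a scaffold, and a list of 6 further genes of the perivascular water and potassium complex was examined with it. Trpv4, a cation channel that opens with cell swelling, was the single gene of the list to be called. It fell under water by 1.47 on the log2 scale (adjusted p = 0.0384 by edgeR) and averaged over treatments by 1.11 (adjusted p = 0.00430). Trpv4 was at 2.70, 6.15, 4.10 and 8.78 CPM in home cage water mice 6, 8, 11 and 20, and at 1.53 to 2.61 CPM in learning water mice, with no overlap. In caffeine mice it was at 2.16 to 3.18 CPM in the home cage and 1.09 to 2.05 CPM after learning. These groups did not overlap either, and Trpv4 was not called there. In the home cage its mean was 5.43 CPM in water and 2.72 CPM in caffeine mice. The choroid plexus, which also expresses Trpv4, moved with it. Its 10 genes summed to 310 to 2375 CPM in home cage water and 168 to 441 CPM in learning water mice. Of these 10, 4 (Ttr, Folr1, Kcnj13 and Aqp1) were called lower with training under water, beside 0.331% of all genes. The part of this in the change of Trpv4 was not tested.

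Of the members that handle glutamate, Slc1a2, Slc1a3 and Glul were called in no comparison. Slc1a2 (chromosome 2 from 102658659 to 102790784) ran from 2732 to 3583 CPM over the 16 mice, and its log2 fold change with training was −0.05 under water and 0.02 under caffeine. Slc1a3 (chromosome 15 from 8634124 to 8710764) ran from 621 to 836 CPM, with −0.08 and 0.08. Glul (chromosome 1 from 153899944 to 153909723) ran from 1347 to 1637 CPM, with 0.02 and 0.05. Of 10 further genes of glutamate and glutamine handling, 2 were called higher with training averaged over treatments: Slc1a1, the neuronal glutamate transporter (0.10, adjusted p = 0.0929 by edgeR), and Aldh18a1, an enzyme that leads from glutamate to proline (0.16, adjusted p = 0.0970). Over all genes 7.81% were called higher in that average. No gene of the glutamate and glutamine list was called in another comparison.

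Aldh1l1, S100b and Fgfr3 are widely used to mark or isolate astrocytes and were likewise called in no comparison of all 16 libraries. Aldh1l1 (chromosome 6 from 90486427 to 90600203) was at 52.9, 50.0, 61.8 and 63.7 CPM in home cage water mice 6, 8, 11 and 20, and at 49.6, 49.5, 53.8 and 47.9 CPM in learning water mice 24, 33, 36 and 38. In caffeine mice it was at 52.0, 49.1, 49.9 and 57.8 CPM in the home cage (mice 2, 9, 14 and 17) and at 65.2, 72.3, 47.4 and 43.4 CPM after learning (mice 22, 27, 30 and 40). The learning caffeine group thus held both the highest values and the lowest value of the 16. S100b (chromosome 10 from 76253853 to 76261159) ran from 107 to 145 CPM and Fgfr3 (chromosome 5 from 33721674 to 33737068) from 88.7 to 135 CPM, each overlapping between all groups compared. Exons of Fgfr3 overlap those of G630022F23Rik by 998 bases and exons of Aldh1l1 those of Gm15756 by 499 bases, in both cases on the other strand, so their counts carry that uncertainty; Gm15756 had a count of 0. Glul likewise shares 116 exon bases with Teddm2 and Slc1a2 189 with Gm13872. On their own strand Aldh1l1 shares 105 exon bases with Gm45901 and Glul 93 with Mir8114, and union mode discards reads that fall on both genes.

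Fgfr3 binds fibroblast growth factors, and 13 further genes of that signal were followed. Spry4 and Dusp6, feedback inhibitors that are switched on by growth factor and other ERK signals, were called higher with training in water and in caffeine mice. Over all genes 0.639% were called higher under water and 3.16% under caffeine. Spry4 was at 11.4 to 13.3 CPM in home cage water and 16.7 to 20.5 CPM in learning water mice, and at 12.2 to 14.99 and 17.1 to 20.99 CPM in the caffeine mice. Its log2 fold change was 0.64 under water (adjusted p = 0.00427) and 0.49 under caffeine (adjusted p = 0.0126, edgeR). Dusp6 changed by 0.62 (adjusted p = 0.0109) and 0.47 (adjusted p = 0.0258). The groups did not overlap for either gene under either treatment. Averaged over treatments, 3 of the 13 were called higher and 1 lower, beside 7.81% and 6.71% of all genes. Fgfr1 was also called higher there (0.20) and Fgf22 lower (−0.39), while Fgfr3 itself stood at 0.03 with a 95% interval of −0.13 to 0.19. These genes are expressed by neurons as well, and the cells in which they changed were not resolved.

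Caffeine against water was compared in each condition. In the home cage no member was called by edgeR or DESeq2, none had an unadjusted p under 0.05, and none was free of overlap, beside 0%, 3.57% and 1.99% of all genes tested. Gfap showed the largest difference of the 10, with a log2 fold change of 0.15 (adjusted p = 0.997 by edgeR), Aldh1l1 followed with −0.13 and Aqp4 with 0.10. The 95% intervals of the 10 members spanned −0.40 (Aldh1l1) to 0.35 (Aqp4). They differed in width, and that of Glul ran from −0.08 to 0.18. With 4 mice per group, each interval bounds the change of its own gene only.

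After learning, again no member was called by edgeR or DESeq2, as for 0% of all genes, and no member was free of overlap, beside 2.60% of all genes. Here 3 members had an unadjusted p under 0.05, where 3.93% of all genes did. Gjb6 was higher in the caffeine mice with a log2 fold change of 0.27 (unadjusted p = 0.00373), Gfap was at −0.20 (unadjusted p = 0.0206) and Aqp4 at −0.29 (unadjusted p = 0.0243), and the adjusted p was 0.999 for each by edgeR. Without learning caffeine 22 and 27 the log2 fold change was 0.16 for Gjb6, −0.22 for Gfap and −0.13 for Aqp4. The learning caffeine mice entered this comparison and that of training under caffeine alike, so the values of the latter do not bear on it independently. Averaged over home cage and learning mice, no member was called for caffeine by either tool and none had an unadjusted p under 0.05, beside 0% and 4.07% of all genes. The intervals of the 10 then spanned −0.28 (Aqp4) to 0.22 (Aldh1l1).

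Within the learning caffeine group, mice 22 and 27 stood apart from mice 30 and 40 in several members, a pattern seen only after the values were known. Both lay above all 14 other mice in Aldh1l1, Gjb6 and Glul, and both lay below all 14 in Aqp4. Glul was at 1633 and 1637 CPM in these mice against 1347 to 1592 CPM in the other 14. This makes 4 of 10 members (40%), and 8 of 40 further astrocyte genes (20%), for which mice 22 and 27 lay outside the range of the rest on the same side, beside 2.22% of all genes tested. Since the pair was picked after astrocyte genes were seen, these shares are a description and cannot be weighed against that of all genes. F3, Lcat, Bmpr1b, S1pr1, Etnppl and Fam107a were the further genes above the other mice, and Slc7a10 and Chrdl1 those below. The labels give no reason to separate these mice.

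The calls of the members were therefore also computed without mice 22 and 27. Gfap was then at −0.44 (adjusted p = 0.0513 by edgeR) and Gjb6 at 0.35 (adjusted p = 0.0822), both called with training under caffeine. Averaged over treatments Aldh1l1 was then called lower (−0.19, adjusted p = 0.0835), so that 3 of 10 members were called.

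The members did not vary as a single unit among mice of a group. After the group means of log2 CPM had been subtracted, 30 of the 45 pairs of members were positively correlated over the 16 libraries, with a median Pearson r of 0.15 and 9 pairs above 0.5. The highest values were those of Slc1a2 with Slc1a3 (r = 0.74), Aqp4 with Gja1 (0.70), Slc1a2 with Gja1 (0.68), Aldh1l1 with S100b (0.63) and Aqp4 with Slc1a2 (0.62). Aldh1l1 went against Aqp4 (−0.76) and Fgfr3 (−0.59). These correlations share libraries and scaling and are given as a description.

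Without learning caffeine 22 and 27, 24 of 45 pairs were positive over 14 libraries. Slc1a2 with Slc1a3 was then at 0.90, Aqp4 with Gfap at 0.72, Aldh1l1 with Aqp4 at −0.79 and Aldh1l1 with Gfap at −0.85. The last of these was at −0.30 over all 16 libraries, whereas Aldh1l1 ran against Aqp4 to a like degree with and without the pair of mice.

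**Figure D4:**
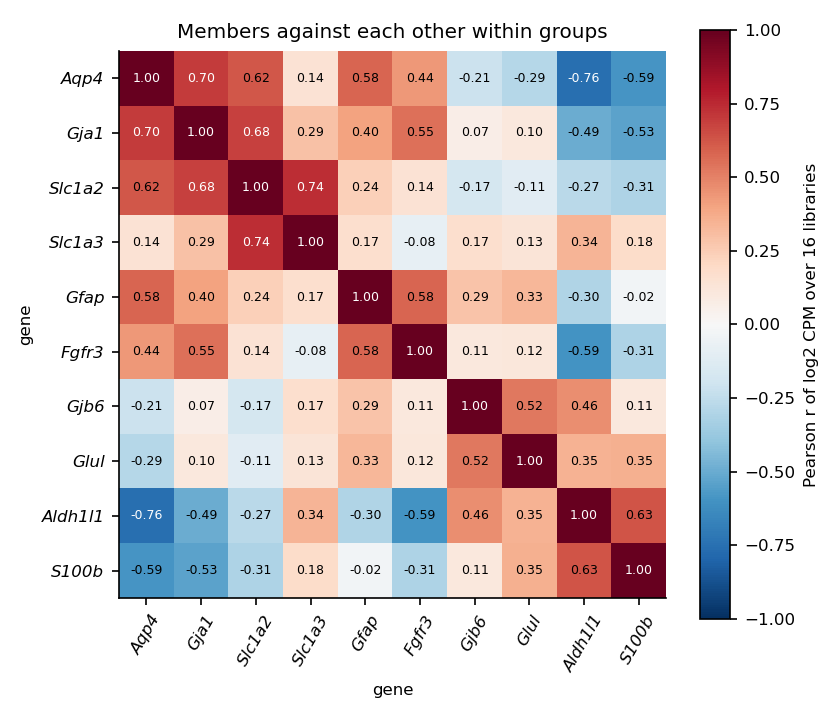
Pearson r between members (rows and columns) over 16 libraries after the group means of log2 CPM were subtracted; red is positive and blue negative, and r is printed in each square. Aqp4, Gja1 and Slc1a2 form a positive block (0.62 to 0.70), and Aldh1l1 is negative with Aqp4 (−0.76) and Fgfr3 (−0.59).

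A list of 40 further astrocyte genes, among them metabolic enzymes, channels and transporters, was tested in full. With training under water 1 of 40 was called higher and 0 lower, beside 0.639% and 0.331% of all genes. The median log2 fold change was −0.04, beside −0.01 over all genes. Ppp1r3c, which targets a phosphatase to glycogen and so promotes its storage, was that gene. It was at 52.1 to 53.9 CPM in home cage water and 63.4 to 73.2 CPM in learning water mice without overlap (log2 fold change 0.41, adjusted p = 0.00527 by edgeR).

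With training under caffeine 2 of 40 were called higher and 0 lower, beside 3.16% and 2.13% of all genes. The median was −0.05, beside −0.01 over all genes. Etnppl, a phospholyase of phosphoethanolamine, was at 11.8, 13.7, 9.85 and 16.99 CPM in home cage caffeine mice 2, 9, 14 and 17 and at 52.6, 58.1, 18.7 and 20.7 CPM in learning caffeine mice 22, 27, 30 and 40 (log2 fold change 1.52 ± 0.29 (SE), adjusted p = 0.0124 by edgeR). Fam107a, an actin-associated gene, was at 562 and 588 CPM in learning caffeine 22 and 27 and at 379 and 374 CPM in mice 30 and 40, against 322 to 360 CPM in the home cage caffeine mice (0.47, adjusted p = 0.0410). Neither was called without mice 22 and 27, when Gpr37l1 was the 1 gene called. Both had the groups free of overlap, yet the size of each change rested on 2 of the 4 mice.

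Averaged over treatments 4 of 40 were called higher and 3 lower, beside the 7.81% and 6.71% of all genes given above. Ppp1r3c (0.26), Etnppl (0.81), Fam107a (0.24) and Dio2 (0.25), which activates thyroid hormone, were higher. Slc7a10, a transporter of small neutral amino acids (−0.23), Mlc1, a membrane protein of the endfeet (−0.12), and Clu, a secreted chaperone (−0.12), were lower. Without learning caffeine 22 and 27 Etnppl was at 0.35 (adjusted p = 0.0723 by edgeR) and Fam107a at 0.08 (adjusted p = 0.304). Fam107a was then no longer called. In that fit Ppp1r3c and Dio2 stayed called higher, and Slc7a10, Mlc1 and Clu lower. Sox9, Ndrg2, Cldn10, Acsbg1, Gpr37l1, Mt3 and Pla2g7 were then also called lower, with log2 fold changes of −0.36 (Mt3) to −0.13 (Acsbg1). The share of all genes called in that fit is not given here. For caffeine against water, and for the difference between the learning responses, 0 of 40 were called by edgeR. DESeq2 also called 0 in both comparisons with water. By edgeR an unadjusted p under 0.05 was found for 2 of 40 in the home cage (3.57% of all genes). After learning it was found for 11 (9 higher and 2 lower, 3.93% of all genes). In the difference it was found for 9 (7 higher and 2 lower, 3.63% of all genes). Learning caffeine 22 and 27 entered the last 2 counts, which were not repeated without them. Without these mice the log2 fold change for caffeine after learning was −0.01 for Fam107a and −0.21 for Etnppl. It was 0.08 for S1pr1, 0.04 for F3, 0.09 for Lcat and 0.07 for Bmpr1b, the other genes these mice had highest.

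**Figure D5:**
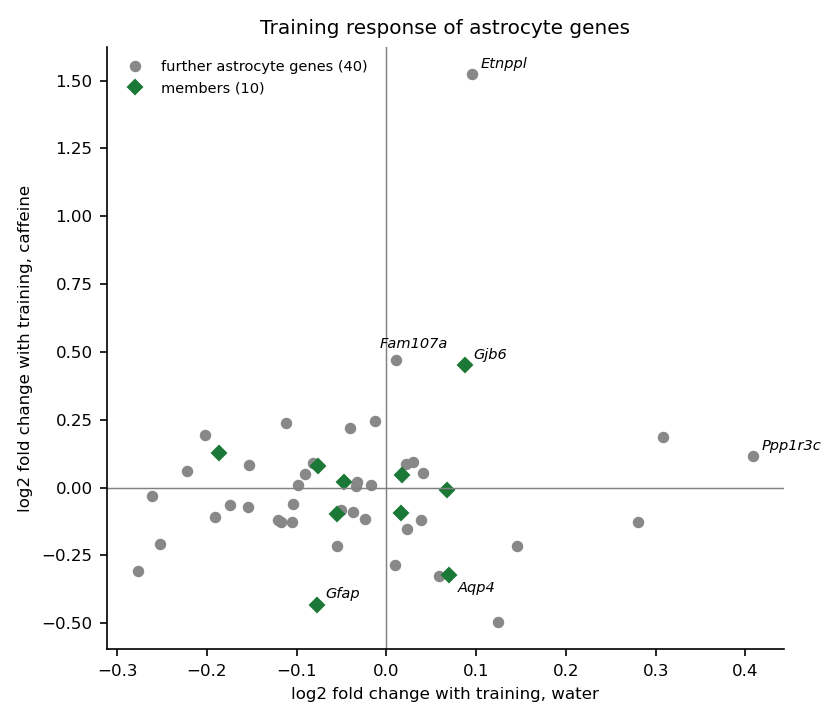
Log2 fold change with training under water (horizontal axis) and under caffeine (vertical axis) for the 10 members (green diamonds) and 40 further astrocyte genes (grey circles), with called genes and Aqp4 named. Etnppl lies at 1.52 and Fam107a at 0.47 under caffeine, Ppp1r3c at 0.41 under water, and most other genes lie near 0 on both axes.

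Genes that astrocytes raise when they become reactive were examined beside Gfap. Of 12 listed, 10 were tested (Lcn2 and Timp1 had too few counts), and none was called in any comparison by edgeR. With training under caffeine 2 of the 10 had an unadjusted p under 0.05 by edgeR, both lower, close to the 18.8% of all genes. The list as a whole was split, with 5 log2 fold changes positive and 5 negative and a median of −0.07. Under water 3 of the 10 had such a p, 2 higher and 1 lower, beside 11.8% of all genes. For caffeine in the home cage it was 3 of the 10, 2 higher and 1 lower, beside 3.57%. After learning it was 1 of the 10, lower, beside 3.93%. In the difference between the learning responses it was 3 of the 10, all lower, beside 3.63%. The median of the list in that difference was −0.21. Within groups Gfap correlated with this list at r = 0.65 over the 16 libraries. Of 9 genes of glycogen and lactate metabolism, Pygb, the brain glycogen phosphorylase, was called higher with training under caffeine (0.18, adjusted p = 0.0860 by edgeR). Over all genes 3.16% were called higher there. Averaged over treatments Pygb (0.11) and Slc2a1, the glucose transporter of endothelium and astrocytes (0.24), were called higher and Ldhb, a lactate dehydrogenase subunit, lower (−0.16). Over all genes 7.81% were called higher and 6.71% lower in that average.

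Markers of other cells moved in the comparison in which Gfap and Gjb6 were called. With training under caffeine, 5 of 9 microglia genes were called lower, among them Cx3cr1 (−0.25), C1qa (−0.29), C1qb (−0.30) and Aif1 (−0.50). Of the 9 log2 fold changes 8 were negative, and 2.13% of all genes were called lower. The summed level of the 9 genes was 522 to 565 CPM in home cage caffeine and 451 to 522 CPM in learning caffeine mice. Within groups, Gfap correlated with the microglia list at r = 0.65 over the 16 libraries, and Gjb6 at 0.39. Opalin was the 1 of 10 oligodendrocyte genes called, at −0.77, beside 2.13% of all genes called lower. All 10 log2 fold changes were negative, with a median of −0.38, and 3 had an unadjusted p under 0.05 by edgeR (18.8% of all genes). Under water 9 of the 10 were positive, with a median of 0.21. The summed level of the 10 genes was 5621 to 9544 CPM in home cage caffeine and 5350 to 7511 CPM in learning caffeine mice. In home cage water mice it was 5554 to 7914 CPM, with a median of 6180 CPM. In learning water mice the median sum was 5908 CPM, with 12769 CPM in mouse 24 and 5499 to 6304 CPM in mice 33, 36 and 38. No marker of either list was at 0 in any library, and the part of these cells in the change of Gfap was not tested.

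Sox2, a transcription factor of neural stem cells that astrocytes also express, was called lower with training under caffeine (−0.41, adjusted p = 0.00987 by edgeR). It was the 1 of 8 genes of an adult neural stem cell list called there, beside 2.13% of all genes called lower. Stem cells of the dentate gyrus express Gfap too, and the summed level of the 8 genes was 232 to 246 CPM in home cage caffeine and 196 to 233 CPM in learning caffeine mice. Averaged over treatments Sox2 (−0.31) and Hopx (−0.20) were lower and Sox11, a gene of young neurons, higher (0.36). Of the 8 genes 3 were called lower and 1 higher in that average, beside 6.71% and 7.81% of all genes. The part of these cells in the change of Gfap was likewise not tested.

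Of the remaining lists, averaged over treatments, 6 of 9 microglia genes and 9 of 10 choroid plexus genes were called lower. This compares with 6.71% of all genes called lower and 7.81% called higher. For caffeine against water in the home cage, all 10 choroid plexus genes were lower with an unadjusted p under 0.05 by edgeR. Their median log2 fold change was −1.67, none was called, and 3.57% of all genes had such a p. Cldn5 was the 1 of 9 endothelial genes called (−0.34), and of 9 genes of the hippocampal neuron fields Wfs1 was lower (−0.32) and Amigo2 higher (0.44). None of 10 neuron, 5 oligodendrocyte precursor and 7 ependymal genes was called in any comparison by edgeR, and 1, 0 and 0 of them had an unadjusted p under 0.05 averaged over treatments, where 25.5% of all genes did. With training under caffeine 2 of the 7 ependymal genes had such a p, beside the 18.8% of all genes, and all 7 log2 fold changes were negative with a median of −0.71.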

How the data were processed

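The authors prepared stranded mRNA libraries from dorsal hippocampus, read them from a single end, aligned the reads with STAR and Bowtie 2 on genome build mm10, discarded those not aligned uniquely, and assigned the rest to Ensembl genes with HTSeq 0.6.1p1 (union mode); the strand setting is not given in the sources used here. They deposited raw counts, which are whole numbers without normalization or molecular identifiers. Columns not used: 0.

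Counts were scaled by TMM, filtered by filterByExpr over the 4 groups and fitted with 1 mean per group over 16 libraries in edgeR 4.0.16 (R 4.3.3). P-values of the quasi-likelihood test were adjusted by Benjamini-Hochberg over 17830 genes, and genes were called at an adjusted p under 0.1, the threshold of the study. CPM are relative to the TMM-scaled total. SE were derived from the F statistic, and 95% intervals from the t distribution. Log2 CPM used a prior count of 2. Positions and exon lengths are from GENCODE M21, which matched 35247 of 35328 genes. Replicates differed by more than sampling noise and were all kept. The labels do not say whether the mice of a group shared a litter, cage or day of handling. The paper states that several mice shared a cage, and that all mice for the RNA-Seq were killed within a short period. If cages were not mixed between groups, cage and treatment cannot be told apart. The p-values compare group means with the spread between mice within groups.

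The members, gene lists and tests were chosen with earlier results of these data known. All members are named. From each list, the called genes were named, up to 4 per list and direction by smallest p; some are not reported here. Genes named for learning caffeine mice 22 and 27, or for the fit without them (such as Gpr37l1), were chosen after their values were seen. So were those mice. No set test was run. The fit was tested on simulated counts. Alternatives were DESeq2 1.42.0 size factors and its Wald test, edgeR on 8 libraries, other count filters, an adjusted p under 0.05, each library left out and, added after the data were seen, thinning to the lowest total and leaving out pairs of libraries.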

Additional observations from a re-analysis of the deposited data

Results flagged for a closer look

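In 1 of the 40 combinations of a member and a group, 1 mouse lay far from the other 3 by Dixon's criterion, which chance meets in about 1 of 20 groups. Slc1a2 in learning caffeine 22 was at 2996 CPM, with the nearest mouse at 3172 CPM. The gap took 0.859 of the group's range.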

How the results depend on the processing

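No paired analysis was possible because the mouse numbers all differ between groups. The number of members called was the same in each comparison under the alternatives run, except that it was 3 in place of 2 with training under caffeine without home cage caffeine 17, alone or with home cage water 20 (Aqp4 added), and averaged over treatments without learning caffeine 22 and 27 (Aldh1l1 added). Gfap and Gjb6 were called with training under caffeine in 9 of 9 other settings, with adjusted p values of 0.000147 to 0.0513 and 4.84e-05 to 0.0822. Of 1720 member log2 fold changes under an alternative, 98 changed sign, 21 of them without learning caffeine 22 and 27; 0 of the 98 were called either way. Among them was Aldh1l1 without these mice, which moved from 0.13 to −0.19 with training under caffeine and from 0.19 to −0.14 for caffeine after learning. Counts of the 40 further astrocyte genes moved. With training under water (1 in the main analysis) the count was 2 with the Wald test of DESeq2 and 2 when any gene with 1 count or more was tested. With training under caffeine (2 in the main analysis) it was 7 with DESeq2, 1 with edgeR on the 8 libraries compared, 4 after thinning to 23078094 counts and 1 without learning caffeine 22 and 27. Leaving out single libraries gave 1 to 5: 1 without learning caffeine 22, 4 without home cage water 6, home cage caffeine 14 or learning caffeine 40, and 5 without home cage water 8 or learning caffeine 27. The cause was not tested. With 4 mice per group, changes of lowly varying members such as Glul were bounded more tightly than those of Aqp4 and Aldh1l1.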

Other observations

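The genes outside the members whose levels within groups were most like the mean of the 10 members, among 13369 genes whose mean log2 CPM reached 1, were Gnpda1 (r = 0.84), Oat (0.84), Csf1r (0.83), Phf20 (0.83) and Alg9 (0.83) over 16 libraries. Csf1r, the receptor by which microglia are maintained, is itself in the microglia list. Within groups Slc1a2 followed the genes of the hippocampal neuron fields (r = 0.68) and ran against the oligodendrocyte list (−0.58), and Fgfr3 followed the endothelial list (0.74). Glul followed the microglia list (0.64) and ran against the choroid plexus list (−0.56). These are descriptions over mice that share library scaling, and tissue makeup as a source of them was not tested.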
